A study of Mus musculus with 4 samples.

Results

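The difference between the array labelled P14 and the P1 array was measured for every gene of the mouse pontine nucleus that the platform table named. The 4 arrays of the study each carried total RNA from 1 pool of dissected pontine nuclei of ICR mice. The pools came from 27 mice at embryonic day 17.5 (E17.5), 16 at postnatal day 1 (P1), 13 at postnatal day 5 (P5) and 12 at postnatal day 14 (P14). No treatment or genotype other than the ICR background was given in the labels, nor the sex of the mice. A gene was measured by 1 probe set that carried its symbol alone, the one with the highest mean over the P1 and P14 arrays. It was kept when the higher of these 2 arrays reached 8.39, the median log2 signal of all single-symbol probe sets over the same pair of arrays. Of 19938 genes, 10236 were kept and 9702 stayed under this level. Each age was 1 pool on 1 array, so no test could be run, the number of arrays limits the precision, and the words higher and lower compare these single arrays.

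The pontine nucleus gathers input from the cerebral cortex and passes it to the cerebellum. Its neurons are glutamatergic, arise in the rhombic lip, migrate along the surface of the hindbrain to the ventral pons and send mossy fibre axons to cerebellar granule cells. In the weeks after birth such neurons stop migrating and extending axons, build synapses and thick axons, and are joined by maturing astrocytes and myelinating oligodendrocytes.

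The tissue label was checked against known markers. Barhl1, a transcription factor of rhombic lip derivatives, gave log2 signals of 12.23 (E17.5), 11.79 (P1), 10.83 (P5) and 11.61 (P14). Pax6, expressed in migrating pontine neurons, gave 11.52, 11.03, 10.01 and 10.73 in the same order, and Slc17a6, a vesicular glutamate transporter, gave 11.44, 11.17, 11.57 and 11.49. All 3 were far above the level on every array. Several markers of neighbouring tissue stayed under the level on both arrays compared. The choroid plexus gene Ttr was at 6.59 (P1) and 6.36 (P14), the serotonergic enzyme gene Tph2 at 7.81 and 8.02, the noradrenergic enzyme gene Dbh at 6.08 and 6.21, and the GABA-synthesising enzyme gene Gad1 at 7.85 and 8.16. Others were above it, such as the serotonin transporter gene Slc6a4 at 8.79 and 9.01 and the choline transporter gene Slc5a7 at 10.27 and 10.12. Sst, from the list of GABAergic and glycinergic neurons, was at 12.89 and 12.64. Gad2, the other gene of a GABA-synthesising enzyme, was at 8.37 on P1 and 8.68 on P14. Other cell types in the dissections are thus not excluded by these markers.

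The age label needs a caution. Mog, a myelin surface protein that appears late in oligodendrocytes, was at 7.39 on P1, 12.91 on P5 and 8.27 on P14. Dcx, which binds microtubules in migrating neurons, was at 12.88, 9.79 and 12.14 on the same arrays. For both genes the P14 value thus lay between those of P1 and P5, and closer to P1. For most of the genes counted here the P14 value also lay between those of P1 and P5. Of the 136 higher genes, 111 were highest on P5, and 10 of the 11 lower genes were lowest there. Over all 10236 genes, 3892 were highest on P5 and 3693 lowest there. In genes chosen by P14 against P1, P14 lies in between whenever P5 differs further from P1 in the same direction. The P14 value was not always closer to P1, as the median level of the higher genes was 8.59 on P1, 9.89 on P14 and 10.80 on P5. The labels P5 and P14 may thus have been exchanged, which was not tested. They are kept as deposited, so every difference given for P14 rests on its label, and P5 values are printed beside those of P14 for many of the genes.

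Between P1 and the array labelled P14, differences of 2-fold or more were few and nearly all upward. The array labelled P14 was at least 2-fold higher (a difference of 1 or more on the log2 scale) for 136 genes (1.33% of the 10236) and at least 2-fold lower for 11 (0.107%), together 147 genes or 1.44%. At 1.5-fold, 456 genes were higher (4.45%) and 115 lower (1.12%), together 5.58%. In bulk tissue, fewer cells of a type and less RNA per cell cannot be told apart. The median difference over all genes was -0.02, with quartiles at -0.16 and 0.15, and 4698 of the 10236 were above 0 and 5371 below. The counts given for lists below are to be read against this balance and the shares above. A 3-fold difference was passed by 18 genes upward and 2 downward, and a 4-fold difference by 6 upward and 0 downward. The 6 were Dcn, Fxyd7, Slc6a13, Cpne9, Hspb1 and Gfap, of which Dcn, Slc6a13 and Hspb1 were under the level on P1. Among the 9515 genes at or above the level on both arrays, 82 were 2-fold higher and 7 lower. The other 54 of the 136 higher genes were under the level on the P1 array and passed through P14 alone. Their folds are inexact, and only their levels are given. The count is sharp at its edge: 22 genes differed by 1.00 to 1.04 in either direction and 18 by 0.95 to 0.99. Sox11 (-1.04) and Kcna1 (1.03) lay just inside, and Ebf1 (-0.99) and Mbp (0.96) just outside.

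**Figure D1:**
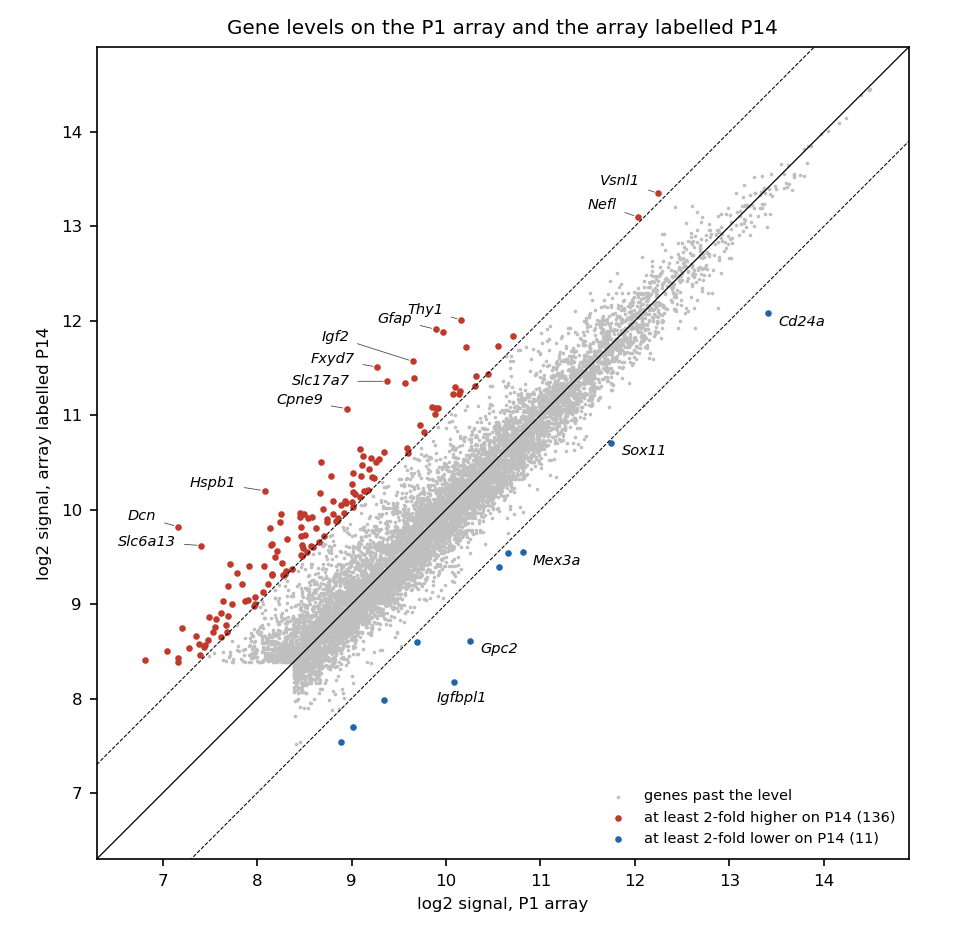
Log2 signal of each of the 10236 genes past the level on the P1 array (horizontal axis) and on the array labelled P14 (vertical axis). Red points are the 136 genes at least 2-fold higher and blue points the 11 at least 2-fold lower; the solid line marks equal values and the dashed lines 2-fold differences.

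Probe sets of the same gene gave the only error estimate. Over 607 genes with more than 1 probe set past the level (1688 probe sets), the standard deviation of the difference between probe sets of a gene was 0.10 on the log2 scale. It was 0.14 for mean levels under 9.5, 0.11 from 9.5 to 11 and 0.05 at 11 or more. This spread holds probe noise and not the spread between mice or pools. A further probe set past the level existed for 6 of the 2-fold genes, 9 in all. All 9 differed in the same direction, 7 by 1.5-fold or more and 5 by 2-fold or more. They are not independent checks. Adamts9 alone gave several of them, with differences from 0.31 to 1.14, and that of Snord118 had the same values as the chosen one (8.89 on P1 and 7.54 on P14). Such copies would also narrow the spread given above, and their number was not counted. For Hspb1, a small heat shock protein, the second probe set read 8.06 (P1) and 10.19 (P14), close to the chosen one at 8.08 and 10.20. For Tmem196, a membrane protein, the chosen probe set differed by 1.00 and the other by 0.27.

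The bases around the start sites of 3 higher and 2 lower genes are shown as examples of low and high CpG content. Gfap, the intermediate filament of astrocytes, read 7.19 (E17.5), 9.89 (P1), 12.09 (P5) and 11.91 (P14), a P14 level 4.06-fold that of P1. Agt, the angiotensin precursor secreted by astrocytes, read 7.68, 9.57, 12.26 and 11.34, which is 3.41-fold higher than P1. Slc17a7, the vesicular glutamate transporter of mature relay neurons, read 8.16, 9.38, 12.90 and 11.36, which is 3.94-fold higher. On the lower side, Gpc2, a cell surface proteoglycan of growing axons, read 11.14, 10.25, 7.27 and 8.61, which is 3.12-fold lower on the array labelled P14 than on P1. Sox11, a transcription factor of immature neurons, read 12.52, 11.75, 8.91 and 10.71, which is 2.06-fold lower.

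The sequences are from RefSeq on build GRCm38.p6, read 5′ to 3′ on the gene's strand from 250 bases before to 50 after the start site, with each CpG in capitals. The window of Gfap is chr11:102897151-102897450 (minus strand) and holds 3 CpG. The window of Agt is chr8:124569657-124569956 (minus strand) and holds 1 CpG. The window of Slc17a7 is chr7:45163671-45163970 (plus strand) and holds 13, that of Gpc2 is chr5:138279888-138280187 (minus strand) and holds 26, and that of Sox11 is chr12:27342669-27342968 (minus strand) and holds 21.
Gfap: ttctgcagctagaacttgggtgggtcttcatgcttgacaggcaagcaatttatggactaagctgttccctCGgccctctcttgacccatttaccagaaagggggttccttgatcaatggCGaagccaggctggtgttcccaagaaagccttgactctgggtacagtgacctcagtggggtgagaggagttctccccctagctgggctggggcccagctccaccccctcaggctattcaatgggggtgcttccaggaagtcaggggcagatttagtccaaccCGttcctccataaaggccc
Agt: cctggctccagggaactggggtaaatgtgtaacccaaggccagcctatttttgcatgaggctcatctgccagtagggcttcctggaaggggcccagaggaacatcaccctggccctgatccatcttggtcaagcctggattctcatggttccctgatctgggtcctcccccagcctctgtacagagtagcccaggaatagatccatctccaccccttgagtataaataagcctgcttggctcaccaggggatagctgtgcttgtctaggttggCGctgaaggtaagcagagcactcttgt
Slc17a7: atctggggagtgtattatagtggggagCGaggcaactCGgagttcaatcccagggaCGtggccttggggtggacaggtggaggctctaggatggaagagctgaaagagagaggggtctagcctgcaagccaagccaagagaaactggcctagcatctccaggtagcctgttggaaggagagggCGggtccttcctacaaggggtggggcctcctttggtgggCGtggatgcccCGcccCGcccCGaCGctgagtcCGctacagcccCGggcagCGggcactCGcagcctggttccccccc
Gpc2: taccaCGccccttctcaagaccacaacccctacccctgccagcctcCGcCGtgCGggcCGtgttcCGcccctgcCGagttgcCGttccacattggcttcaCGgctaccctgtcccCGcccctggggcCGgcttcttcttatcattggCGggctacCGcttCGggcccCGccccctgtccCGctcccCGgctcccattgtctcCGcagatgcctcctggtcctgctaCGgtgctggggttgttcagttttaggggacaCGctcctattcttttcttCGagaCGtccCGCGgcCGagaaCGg
Sox11: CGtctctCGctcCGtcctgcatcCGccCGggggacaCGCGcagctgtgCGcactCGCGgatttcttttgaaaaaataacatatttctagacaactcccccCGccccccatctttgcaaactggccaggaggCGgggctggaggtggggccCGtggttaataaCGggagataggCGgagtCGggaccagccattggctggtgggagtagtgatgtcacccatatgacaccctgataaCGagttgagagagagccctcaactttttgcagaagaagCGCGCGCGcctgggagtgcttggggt

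The ratio of CpG observed to that expected from base composition was 0.13 for Gfap, 0.04 for Agt and 0.44 for Slc17a7, against 0.85 for Gpc2 and 0.82 for Sox11. The same measure was taken over all 129 listed promoters of the 100 higher genes that had an entry. Its median was 0.46 (quartiles 0.26 and 0.73), and 77 promoters (59.7%) were under 0.6. Over the 10700 promoters of 8218 genes past the level the median was 0.76 (quartiles 0.56 and 0.92), with 28.6% under 0.6. Over all 32851 promoters, of genes past the level or not, it was 0.38, lower than that of the higher genes. The 19 promoters of higher glial genes had a median of 0.32 and 73.7% under 0.6, and the 76 of higher genes in no list had 0.50 and 56.6%. Among higher genes that were at or above the level on P1, 56.2% of 80 promoters were under 0.6. The 2-fold lower genes had 8 promoters from 6 genes, with a median of 0.64 and 50.0% under 0.6, so too few to set against the higher ones. For genes at least 1.5-fold lower the median over 104 promoters was 0.69, with 35.6% under 0.6. Low CpG content was therefore not limited to the glial genes among the higher ones. These are descriptions without a test.

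**Figure D2:**
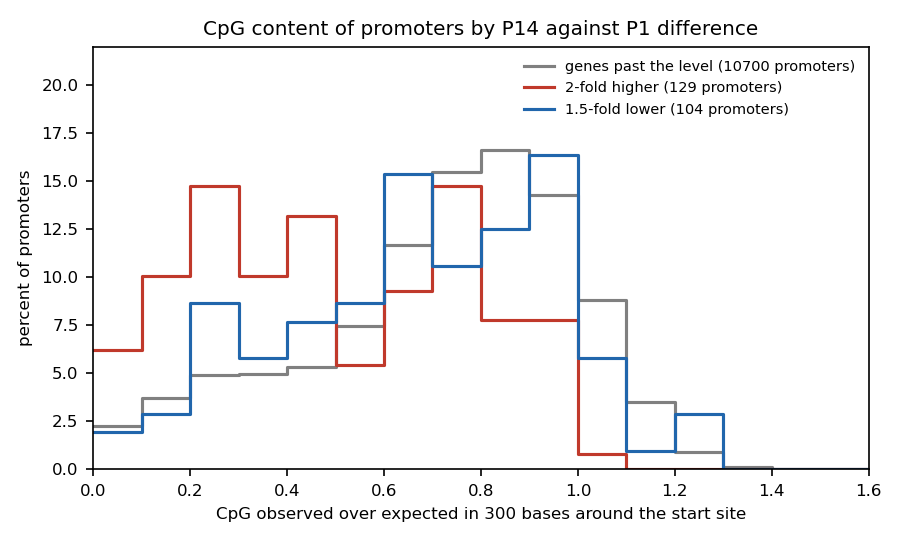
Share of promoters (percent, vertical axis) by CpG observed over expected in the 300 bases around the start site (horizontal axis) for all genes past the level, genes at least 2-fold higher and genes at least 1.5-fold lower on the array labelled P14. The red line of the higher genes stands above the grey line of all genes at low CpG ratios, with 59.7% against 28.6% of promoters under 0.6.

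Motifs were searched in the same windows on both strands. The E-box CAGCTG was in 15.5% of promoters of higher genes, 15.3% of those of genes past the level and 16.3% of all 32851 promoters of the table. The Sox motif ACAATGG was in 2.33%, 2.04% and 3.66%, and TATAAA in 10.1%, 6.59% and 13.6%. The nuclear factor I palindrome was in 0 of the 129 promoters of higher genes and in 0.0365% of all promoters. In the windows shown, TATAAA lay 30 bases before the start of Agt, the Sox motif 58 bases before that of Gpc2 and the E-box 210 bases before that of Sox11. A match of letters is a description and not a bound site.

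Several of the highest differences were those of neuronal genes. Lynx1, a membrane-bound modulator of nicotinic receptors, read 8.35 (E17.5), 9.97 (P1), 12.77 (P5) and 11.88 (P14), 3.76-fold above P1. Thy1, a surface glycoprotein of projection neurons, read 9.13, 10.16, 12.68 and 12.01, 3.61-fold above P1. Nefh, the heavy neurofilament chain of large axons, read 8.42, 8.68, 12.36 and 10.50, 3.53-fold above P1. In all 3 the array labelled P5 was highest and P14 next.

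The neurofilament and axonal cytoskeleton list held 28 genes past the level, of which 6 were 2-fold higher and 0 lower, with a median of 0.20. Beside Thy1 and Nefh the higher members were the tubulin Tuba4a (10.21 on P1 and 11.72 on P14), the dynein chain Dync1i1 (8.50 and 9.95), and the medium and light neurofilament chains Nefm (9.89 and 11.08) and Nefl (12.03 and 13.10). All 3 neurofilament chains thus differed by 2-fold or more. The lowest members were the spectrin partner Add2 and the microtubule protein Map4, at -0.39 each.

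The transmitter release list was carried by Slc17a7 alone at 2-fold. Of 36 members past the level, 1 was 2-fold higher, 5 were 1.5-fold higher and 1 was 1.5-fold lower, with a median of 0.24. The release factor Unc13c (10.49 on P1 and 11.11 on P14) and the SNARE protein Snap25 (12.31 and 12.92) followed at 0.62 and 0.61. The active zone protein Rims3 read 10.78 and 10.03, a difference of -0.75, and Unc13b 10.44 and 10.08, a difference of -0.36. The other vesicular glutamate transporter, Slc17a6, differed by 0.32.

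Ion transport across the axon and cell membrane stood out by Fxyd7, a regulator of the sodium pump in neurons. It read 9.64 (E17.5), 9.27 (P1), 11.67 (P5) and 11.51 (P14), 4.72-fold above P1. Of the 16 sodium pump and pH genes past the level, 6 were 1.5-fold higher and 0 lower, and the list median was 0.54. Fxyd1, another pump regulator, was at 8.79 on P1 and 9.73 on P14, and Car4, a carbonic anhydrase, at 8.92 and 9.78. Fxyd6 was the lowest member at -0.16.

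Voltage-gated channels were mixed. Of 47 sodium and potassium channel genes past the level, 2 were 2-fold higher, 11 were 1.5-fold higher and 1 was 1.5-fold lower, with a median of 0.17. Kcnc4, a fast potassium channel subunit, read 8.38 (E17.5), 8.54 (P1), 10.77 (P5) and 9.91 (P14), a difference of 1.37 from P1. Kcna1, an axonal potassium channel, read 8.52, 8.85, 11.79 and 9.88, a difference of 1.03. At the other end the sodium channels Scn9a (10.96 on P1 and 10.22 on P14) and Scn3a (10.13 and 9.67) differed by -0.74 and -0.46. Kcnc1, a subunit of the same family as Kcnc4, differed by -0.12, and the sodium channel Scn1a by 0.45.

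Calcium genes had a list median of 0.30 over 30 members, with 2 of them 2-fold higher. Vsnl1, a neuronal calcium sensor, read 12.25 on P1 and 13.35 on P14, a difference of 1.10 at a level where probe sets spread least. Cacna2d3, a calcium channel subunit, was at 7.62 and 8.65. The channel gene Cacna1h read 10.13 and 9.41, a difference of -0.72, and the buffer gene Calb1 9.99 and 9.60, a difference of -0.39. Pvalb, another calcium buffer, stayed under the level at 6.48 and 6.61.

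Glutamate receptor genes had a list median of 0.02 over 31 members, near that of all genes, and 2 of them were 2-fold higher. Grin2d, an NMDA receptor subunit, read 8.55 (E17.5), 8.89 (P1), 9.11 (P5) and 10.05 (P14), so that its P14 level was the highest of the 4 arrays. Cacng3, an AMPA receptor auxiliary subunit, was at 7.16 on P1 and 8.43 on P14, and 7.71 on the array labelled P5. Grin2b, the NMDA receptor subunit of young neurons, was at 12.06 and 11.79, a difference of -0.27. Grin2a, the subunit of mature synapses, stayed under the level at 6.83 on P1 and 7.73 on P14, against 9.45 on the array labelled P5. The lowest members were the kainate receptor subunit Grik3 (-0.45) and the auxiliary subunit Shisa7 (-0.42).

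Among 26 postsynaptic scaffold and kinase genes 1 was 2-fold higher, with a median of 0.18. This was neurogranin (Nrgn), a calmodulin-binding protein, which read 8.63 (E17.5), 8.62 (P1), 9.46 (P5) and 9.81 (P14), a difference of 1.19. The scaffold gene Baiap2 followed at 0.68, and Lrrc7, a partner of postsynaptic density proteins, was lowest at -0.44.

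Of 18 genes of GABA and glycine receptors and chloride transport, 4 were 1.5-fold higher and 0 lower, with a median of 0.24. Slc12a5, the chloride exporter that sets mature inhibition, read 9.91 (E17.5), 11 (P1), 11.72 (P5) and 11.66 (P14), 1.58-fold above P1. Slc12a2, the chloride importer, read 9.76 on P1 and 9.68 on P14, a difference of -0.08. Glrb, the anchoring glycine receptor subunit, read 10.71 and 11.57, a difference of 0.86, and Gabrg3, a GABA receptor subunit, 7.95 and 8.67. The embryonic glycine receptor subunit Glra2 (-0.48) and the kinase Wnk3 (-0.47) were lowest.

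The LGI family, grouped after its values were seen, had 3 of its 4 genes on the array past the level. Lgi3, a secreted glycoprotein, was at 8.14 on P1, 12.88 on P5 and 9.81 on P14. Lgi2 read 8.45, 10.82 and 9.92, a P14 difference of 1.47, and Lgi1 read 10.76, 12.41 and 11.69, a difference of 0.93. The synapse organiser list as a whole had a median of 0.04 over 38 members, with 3 of them 2-fold and 8 1.5-fold higher. Its remaining 2-fold member was Bmp4, a bone morphogenetic protein, at 8.74 and 9.87. The latrophilin Adgrl3 was among the lowest at -0.31.

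Cpne9, a calcium-dependent phospholipid-binding copine in no list, read 8.39 (E17.5), 8.95 (P1), 12.13 (P5) and 11.07 (P14), 4.35-fold above P1. Prkcd, a protein kinase C isoform, read 8.55, 8.78, 11.40 and 10.36, 2.99-fold above P1. Fat2, a large cadherin known from cerebellar granule cells, read 8.84, 9.09, 10.98 and 10.64, 2.93-fold above P1. The lipid phosphatase gene Sgpp2 was at 7.71 on P1 and 9.43 on P14.

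**Figure D3:**
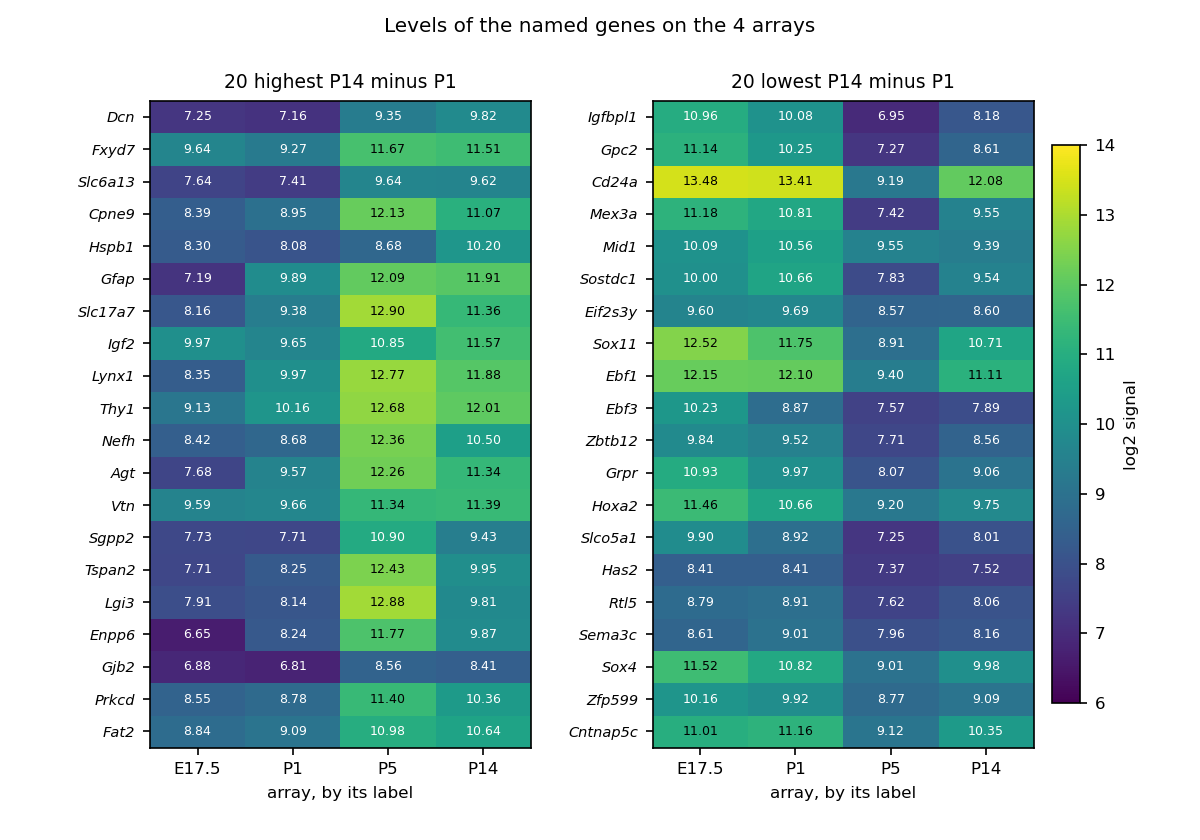
Log2 signal on the arrays labelled E17.5, P1, P5 and P14 for the 20 genes with the highest and the 20 with the lowest difference between P14 and P1, printed in each cell and shown by colour. Hspb1 is the clearest of the left-hand genes with its highest value on the array labelled P14 (10.20, against 8.68 on the array labelled P5), and Mid1 has its lowest value there (9.39, against 9.55).

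Astrocyte genes were higher across most of their list. Of 41 astrocyte list genes past the level, 39 were above 0, 14 were 1.5-fold higher and 8 were 2-fold higher, with a median of 0.47 against -0.02 for all genes. None of the 41 was 1.5-fold lower. Beside Gfap and Agt, the lipoprotein enzyme Lcat read 8.45 on P1 and 9.97 on P14, the neurotensin receptor Ntsr2 8.70 and 10.01, the urea transporter Slc14a1 9.18 and 10.43, and the chaperone Clu 10.14 and 11.23. The zinc transporter Slc39a12 (7.67 and 8.78) and the calcium-binding protein S100b (7.98 and 9.08) were under the level on P1. Not every astrocyte marker differed this much. The water channel Aqp4 read 11.83 and 12.36, a difference of 0.53, and the folate enzyme Aldh1l1 differed by 0.09. The metallothionein Mt2 (-0.20) and tissue factor F3 (-0.09) were lowest. The array labelled P5 was above P14 in all 8 of the 2-fold genes. The summed linear signal of the 49 astrocyte genes on the array was 1.32 times as high on P14 as on P1.

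Myelin genes had the highest list median, 0.76 over 22 genes, yet stood far below the array labelled P5. Of the 22, 8 were 2-fold higher, 13 were 1.5-fold higher and 0 were 1.5-fold lower. The tetraspanin Tspan2 was at 8.25 on P1, 12.43 on P5 and 9.95 on P14. Cldn11, the tight junction protein of myelin, read 8.67, 13.50 and 10.18, and Cnp, an enzyme of oligodendrocyte processes, read 10.55, 13.52 and 11.73. The adhesion protein Mag was at 8.15, 13.38 and 9.63, and Mobp, a compact myelin protein, at 7.05, 12.91 and 8.50. In each of these the P14 value lay between the other arrays. Mbp, myelin basic protein, read 10.05, 12.43 and 11.01, 1.95-fold above P1. The lipid enzymes Fa2h (8.16 on P1 and 9.31 on P14) and Ugt8a (8.66 and 9.66) and the gap junction gene Gjc3 (9.60 and 10.60) completed the 2-fold members. Cntn2, an adhesion molecule shared by myelinating glia and growing axons, was lowest at -0.41. The median of the same 22 genes for P5 against P1 was 2.98. The summed linear signal of the 29 myelin genes on the array was 1.55 times as high on P14 as on P1.

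Among 25 genes of oligodendrocyte precursors and newly formed oligodendrocytes 10 were 1.5-fold higher, with a median of 0.55. The 2-fold members were Enpp6 (8.24 on P1 and 9.87 on P14), a phosphodiesterase of newly forming oligodendrocytes, the receptor gene Gpr17 (10.07 and 11.22) and Bmp4. The precursor markers Pdgfra and Cspg4 differed by less than 0.585, the 1.5-fold bound. Pcdh15, a protocadherin, and Vcan, the proteoglycan versican, differed by -0.57 and -0.36.

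All 19 microglia and macrophage genes past the level were above 0, against 4698 of 10236 over all genes. Their median was 0.45, although 1 reached 2-fold and 7 reached 1.5-fold. Olfml3, a secreted microglial protein, read 8.86 on P1 and 9.91 on P14. Ly86, an immune co-receptor, read 9.86 and 10.73, and the lipid receptor Trem2 was lowest at 8.66 and 8.82. The summed signal of the 33 genes on the array was 1.45 times that of P1.

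Genes of pericytes, smooth muscle and meninges were higher in most of their list, and some differed widely. Dcn, the collagen-binding proteoglycan decorin, read 7.25 (E17.5), 7.16 (P1), 9.35 (P5) and 9.82 (P14), and so was under the level on P1. Slc6a13, a GABA transporter of the leptomeninges, read 7.64, 7.41, 9.64 and 9.62, also under the level on P1. Igf2, a growth factor made by meninges and choroid plexus, read 9.97, 9.65, 10.85 and 11.57, 3.78-fold above P1, and Vtn, the matrix protein vitronectin, read 9.59, 9.66, 11.34 and 11.39, 3.32-fold above P1. The array labelled P14 was the highest of the 4 for Dcn, Igf2 and Vtn.

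Of 28 such genes past the level, 6 were 2-fold higher, 14 were 1.5-fold higher and 0 were 1.5-fold lower, with a median of 0.60. Below 0 were 3 of them. Members under the level on P1 passed the filter through P14 alone. The median was 0.51 over 44 genes with no filter, and 0.51 over 21 with the filter on the mean of both arrays. The remaining 2-fold members were the collagen chains Col1a2 (8.47 on P1 and 9.63 on P14) and Col6a3 (7.73 and 9, under the level on P1). Col1a1 read 8.77 and 9.72, and Col5a1 was lowest at -0.31. The summed linear signal of all 44 list genes on the array was 16452 on P1 and 28152 on P14, a ratio of 1.71. Gjb2, a connexin found in leptomeningeal cells, was in no list and stood at 6.81 and 8.41. The share of meninges in each dissection is not given in the labels, and its part in these values was not tested.

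Endothelial genes differed less, with a median of 0.27 over 27 genes and 0 of them past 1.5-fold in either direction. The choroid plexus and ependyma list had 2 of 17 genes past the level. Of these, Sostdc1, a secreted antagonist of BMP and Wnt signals, read 10.66 (P1), 7.83 (P5) and 9.54 (P14), 2.17-fold lower than P1. The red blood cell list had 1 of 7 genes past the level, Alas2, a haem enzyme, at 8.41 and 8.62. Summed signals over whole lists were 0.787 times P1 for choroid plexus, 1.08 times for red blood cells, 0.967 times for GABAergic and glycinergic neurons and 1.11 times for cerebellar neurons. These sums follow their strongest genes. In the choroid plexus list 11 of 17 genes were above 0 and 5 below, and the ratio rests mainly on Sostdc1. In the GABAergic and glycinergic list 16 of 24 were above 0 and 7 below, with Sst strongest (12.89 and 12.64). The strongest cerebellar list gene was Barhl1, also a pontine marker. Gad2, a GABA-synthesising enzyme, read 8.37 and 8.68.

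**Figure D4:**
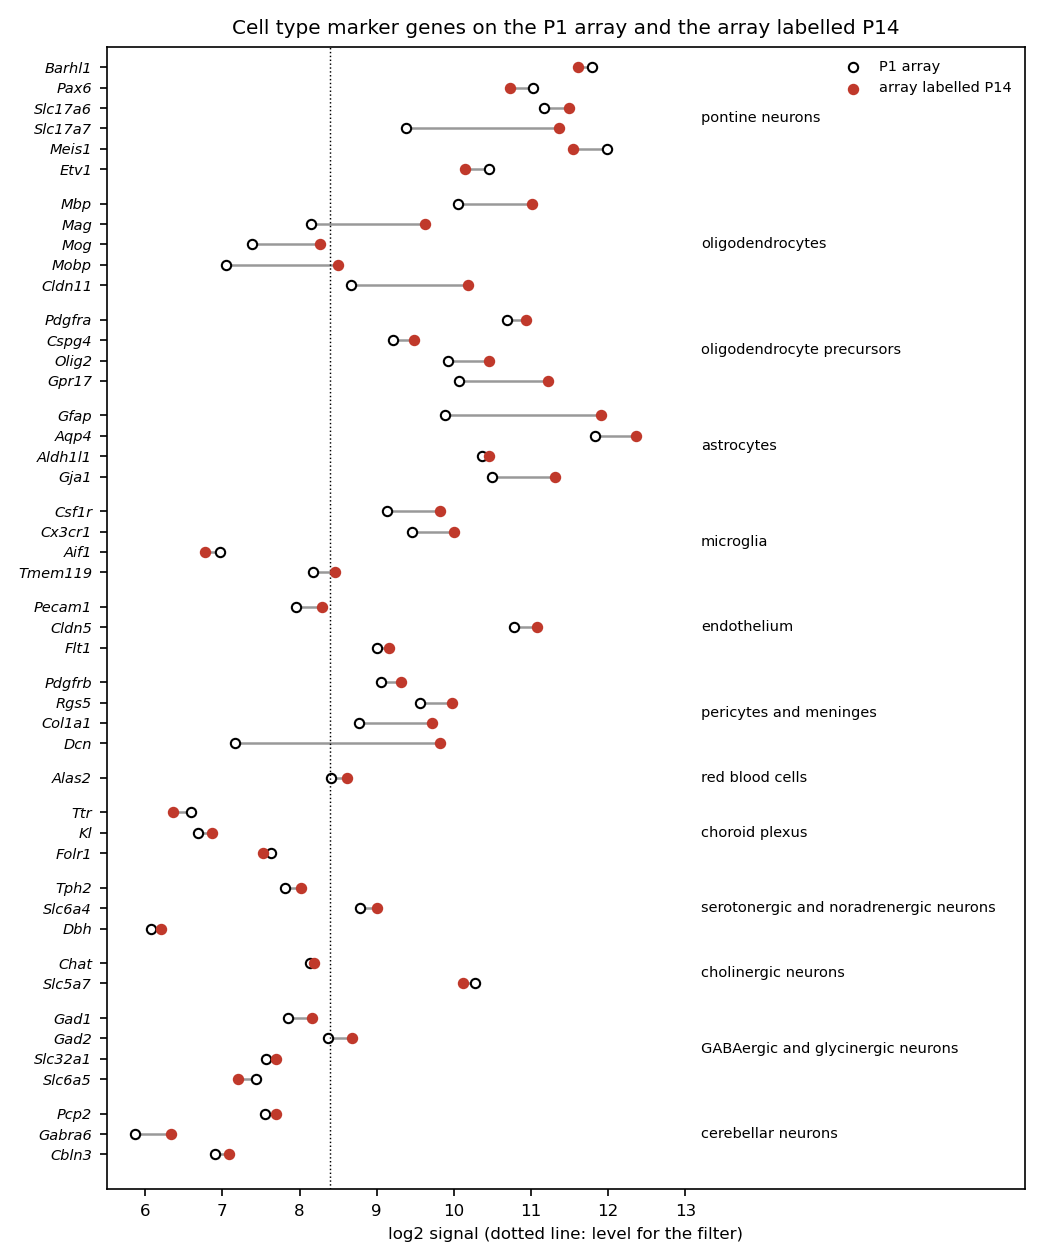
Log2 signal (horizontal axis) of cell type marker genes on the P1 array (open circles) and on the array labelled P14 (red circles), joined by a line per gene, with the level of 8.39 dotted. Markers of pontine neurons lie to the right of the dotted line on both arrays, while Ttr, Dbh, Gad1 and the cerebellar markers lie to its left. The cholinergic marker Slc5a7 and the serotonergic marker Slc6a4 also lie to its right on both arrays.

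The cholinergic and motor neuron list had 8 of 21 genes past the level. Lynx1 and Ache, the acetylcholine-degrading enzyme (9.12 on P1 and 10.57 on P14), were 2-fold higher. The defining transporters of cholinergic neurons differed little. Slc5a7, the choline transporter, read 10.27 and 10.12, and Slc18a3, the vesicular acetylcholine transporter, 9.93 on P1 and 0.07 more on P14.

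On the lower side, genes of young, growing neurons were 5 of the 11 that passed 2-fold. They were Igfbpl1, Gpc2, Cd24a and Mex3a of the growth cone and outgrowth list and Sox11. Igfbpl1, a secreted protein of newborn neurons, was at 10.96 (E17.5), 10.08 (P1), 6.95 (P5) and 8.18 (P14). Cd24a, a surface glycoprotein of immature neurons, read 13.48, 13.41, 9.19 and 12.08, 2.51-fold lower than P1. Mex3a, an RNA-binding protein of proliferating and young cells, read 11.18, 10.81, 7.42 and 9.55, 2.39-fold lower. In each the array labelled P5 was lowest.

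The growth cone list as a whole differed by much less than these 4. Of 29 genes, 26 were below 0 and 6 were 1.5-fold lower, with a median of -0.15. Dcx read 12.88 and 12.14, a difference of -0.74. The abundant growth cone proteins differed by little: Basp1 by -0.04, the microtubule protein Map1b by -0.02, and the stathmins Stmn2 and Stmn4 by 0.03 and 0.14. For P5 against P1 the median of the same list was -0.87.

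Transcription factors of immature neurons had a median of -0.26 over 22 genes, with 4 of them 1.5-fold lower and 0 higher. Ebf1 read 12.15 (E17.5), 12.10 (P1), 9.40 (P5) and 11.11 (P14), a difference of -0.99. Its relative Ebf3 was at 8.87 on P1 and 7.89 on P14, and Sox4, the close relative of Sox11, read 10.82 and 9.98, a difference of -0.84. The highest members were St18 (0.38), a zinc finger factor, and Scrt2 (0.26), a repressor in postmitotic neurons.

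Factors that mark pontine neurons were lower by small amounts. Of 14 past the level, 13 were below 0, yet 0 reached 1.5-fold and the median was -0.20. Meis1 read 11.98 on P1 and 11.55 on P14, Nfib 13.40 and 12.99, Etv1 10.45 and 10.14 and Barhl1 11.79 and 11.61. Nr2f2 was the exception at 0.03. The P5 median for this list was -0.62.

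Hox genes, which set the position of hindbrain neurons along the body axis, had a median of -0.12 over 11 genes, with 3 of them 1.5-fold lower. Hoxa2 read 11.46 (E17.5), 10.66 (P1), 9.20 (P5) and 9.75 (P14), a difference of -0.91, and Hoxa3 read 9.91, 9.32, 7.69 and 8.51, a difference of -0.81. Hoxa5 was at 8.56 on P1 and 7.95 on P14. Hoxb5 went the other way, at 8.15 and 8.61.

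Axon guidance genes went both ways. Of 50, 3 were 2-fold higher, 6 were 1.5-fold higher and 3 were 1.5-fold lower, with a median of -0.06. The semaphorin Sema3e read 8.34 (E17.5), 9.02 (P1), 11.09 (P5) and 10.19 (P14), a difference of 1.17, and Sema7a read 10.44 on P1 and 11.44 on P14, a difference of 1.00. The plexin Plxnb3 was at 8.16 and 9.32. Sema3c was at 9.01 and 8.16, the netrin receptor Unc5d read 9.30 and 8.51, a difference of -0.79, and Nrp1, the semaphorin co-receptor, read 11.36 and 10.63, a difference of -0.73. Of 35 adhesion genes 1 was 2-fold higher, with a median of 0.00. This was Cntnap1, a protein of the junction between axon and myelin, at 9.21 and 10.55, a difference of 1.34. The adhesion genes Cntnap5a (-0.54) and Cdh2 (-0.46) were lowest.

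The remaining 2-fold lower genes were of several kinds. Mid1, a microtubule-bound ubiquitin ligase, read 10.09 (E17.5), 10.56 (P1), 9.55 (P5) and 9.39 (P14), 2.25-fold lower than P1. Eif2s3y, a translation factor encoded on the Y chromosome, read 9.60, 9.69, 8.57 and 8.60, 2.13-fold lower. Mid1 is also a sex chromosome gene. After these values were seen, others were read. Kdm5d was at 8.50 (E17.5), 8.25 (P1), 7.53 (P5) and 7.51 (P14), and Uty at 8.41, 8.54, 7.75 and 7.90. Like Mid1 and Eif2s3y, both were lower on P5 and P14 than on E17.5 and P1. Eif2s3x, Kdm5c, Kdm6a and Ddx3x differed by -0.02, -0.09, -0.12 and -0.15 between P14 and P1. Xist, the X inactivation transcript, read 12.60 on P1 and 12.57 on P14. The part of the sex ratio of the pools in these values was not tested. The 20 lowest differences also held Zbtb12 (-0.96), Slco5a1, Rtl5, Zfp599 (-0.83) and Cntnap5c (-0.81). Slco5a1, an organic anion transporter family member, was at 8.92 on P1 and 8.01 on P14.

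Cell division genes showed no 1.5-fold difference. None of 22 reached 1.5-fold in either direction, with a median of -0.06, and the proliferation marker Mki67 read 9.24 on P1 and 9.25 on P14. The replication gene Mcm7 was lowest at -0.40. The 22 neural progenitor genes past the level had a median of 0.08, and the intermediate filament Nes was at 8.94 and 8.36. Tnc, the matrix protein tenascin-C, read 12.64 and 11.92, a difference of -0.72.

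**Figure D5:**
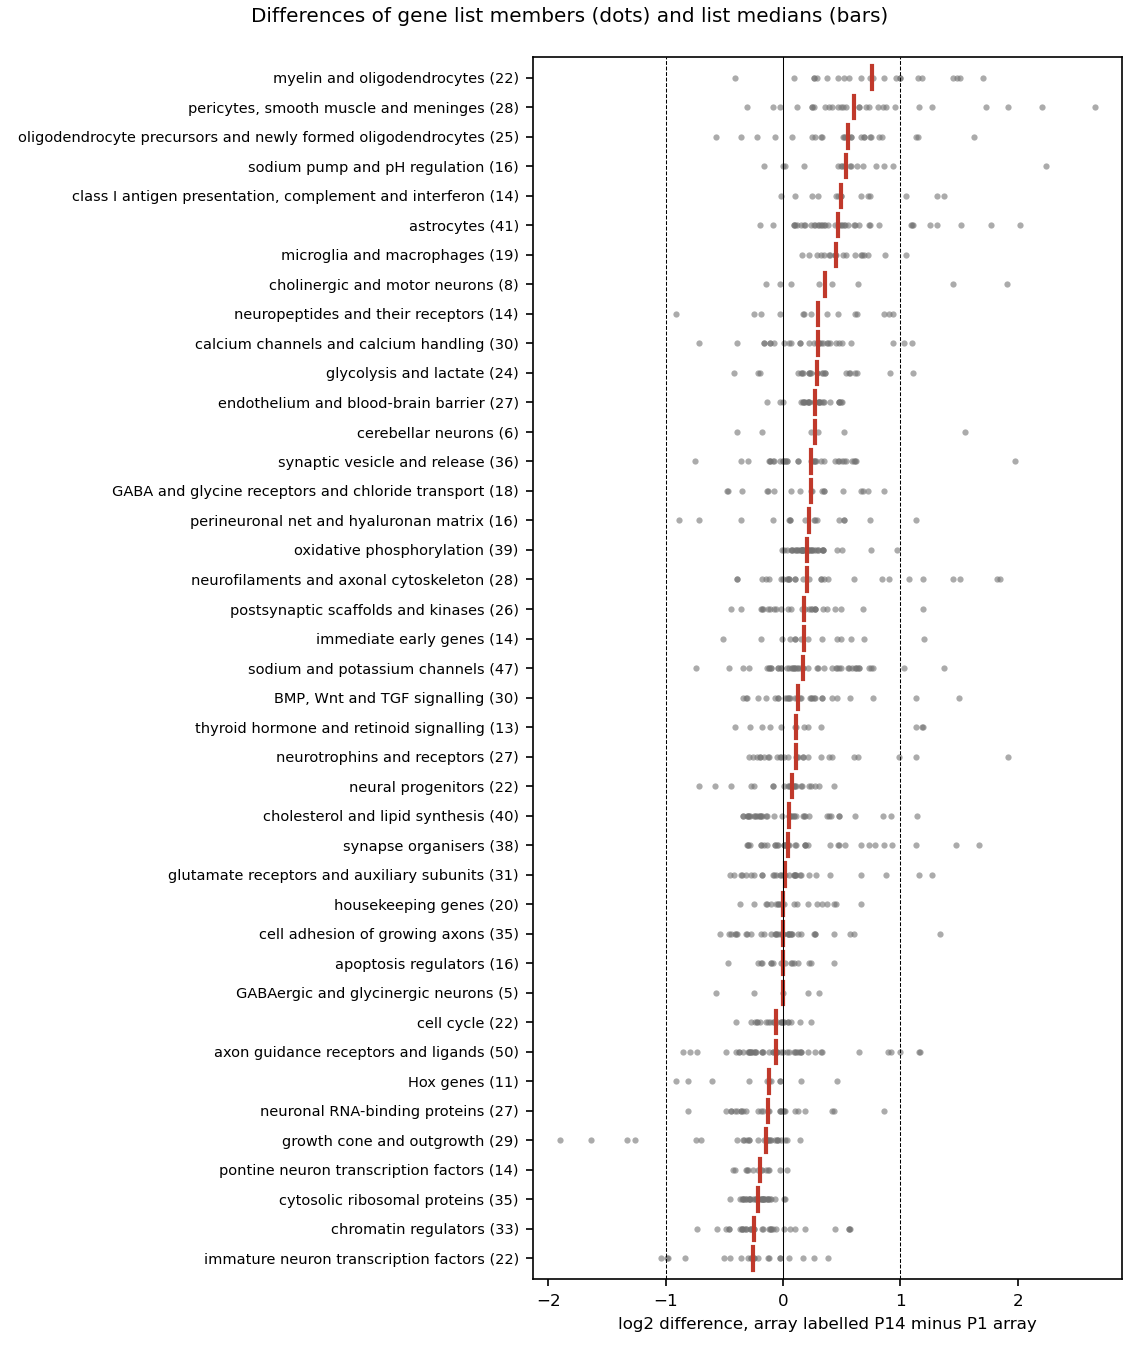
Log2 difference between the array labelled P14 and the P1 array (horizontal axis) for the members past the level of each gene list (grey dots, number in parentheses) with the list median (red bars), ordered by median, from 0.76 for myelin to -0.26 for immature neuron transcription factors. Dashed lines mark 2-fold, and lists with the fewest members past the level (red blood cells, choroid plexus, monoaminergic neurons) are not drawn.

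Chromatin and ribosomal protein genes were mostly lower, by small amounts. Of 33 chromatin regulators 1 was 1.5-fold lower, with a median of -0.25. This was Ezh2, the Polycomb methyltransferase, at 11.52 (E17.5), 11.10 (P1), 10.19 (P5) and 10.37 (P14), a difference of -0.73. The chromatin protein Hmgb3 differed by -0.56, while the DNA methyltransferase Dnmt3a was highest at 0.57. Of 35 cytosolic ribosomal protein genes 33 were below 0, with a median of -0.21 and 0 past 1.5-fold. Rpl24 was the lowest of these, at 11.37 and 10.92. Among 27 neuronal RNA-binding proteins the splicing regulators Khdrbs2 and Mbnl2 were at the ends, with -0.81 (9.46 on P1 and 8.65 on P14) and 0.86 (10.20 and 11.06).

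Energy genes were mostly higher, by small amounts. Of 39 oxidative phosphorylation genes 38 were above 0, with a median of 0.20 and 2 past 1.5-fold, near the 4.45% of all genes that were 1.5-fold higher. The 2 were Ppargc1a, the coactivator of mitochondrial genes (9.91 on P1 and 10.88 on P14), and Ckmt1, the mitochondrial creatine kinase (9.58 and 10.33). Of 24 glycolysis and lactate genes 1 was 2-fold and 4 were 1.5-fold higher, with a median of 0.29. Slc16a1, a lactate transporter, read 10.15 and 11.26, a difference of 1.11, and Eno2, the neuronal enolase, 10.78 and 11.69, a difference of 0.91. The 20 housekeeping genes had a median of 0.00, from -0.37 for Tbp to 0.66 for B2m.

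Signalling lists went both ways, with 0 genes 2-fold lower. The BMP, Wnt and TGF list had 2 of 30 genes 2-fold higher, with a median of 0.13 and a lowest of -0.34. Neurotrophin genes had 2 of 27 (median 0.11, lowest -0.29). Thyroid hormone and retinoid genes had 3 of 13 (0.11 and -0.41), and immediate early genes 1 of 14 (0.18 and -0.51). Tgfb3, a transforming growth factor, was at 7.69 on P1, 10.19 on P5 and 9.19 on P14. Vgf, a neurotrophin-inducible secreted protein, read 9.88, 11.16 and 11.01, a P14 difference of 1.13. Klf9, a transcription factor induced by thyroid hormone, read 8.94, 11.28 and 10.07, also 1.13. Aldh1a1, a retinoic acid-synthesising enzyme, was at 8.26, 10.18 and 9.44. The immediate early gene Fos was at 7.38, 9.59 and 8.58. Of 14 neuropeptide genes past the level 5 were 1.5-fold higher and 1 lower, from the processing enzyme Pcsk1 (7.54 on P1 and 8.48 on P14) to the bombesin family receptor Grpr (9.97 and 9.06).

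Antigen presentation, complement and interferon genes were mostly higher, with 13 above 0 and 1 below. Of 14 genes of class I presentation, complement and interferon response past the level, 3 were 2-fold and 6 were 1.5-fold higher and 0 lower, with a median of 0.49. Serpina3n, a protease inhibitor of reactive astrocytes, read 7.62 (E17.5), 9.02 (P1), 10.92 (P5) and 10.39 (P14), a difference of 1.37. The complement gene C4b was at 7.35 on P1 and 8.66 on P14, and the interferon-induced Ifitm3 read 8.83 and 9.88, a difference of 1.05.

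Matrix genes of perineuronal nets went both ways. Lgals1, a secreted lectin, read 9.22 on P1 and 10.35 on P14, a difference of 1.13, and Tnr, the tenascin of nets, read 10.45 and 11.19, a difference of 0.74. Has2, a hyaluronan synthase, was at 8.41 and 7.52. The list median was 0.22 over 16 genes.

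Seen over all 4 arrays, most of the higher genes did not peak on the array labelled P14. Their median level was 8.16 (E17.5), 8.59 (P1), 10.80 (P5) and 9.89 (P14). Of the 136, 111 had their highest value on P5 and 25 had it on P14. Over all 10236 genes, 3892 were highest on P5 and 1262 on P14. All 20 higher genes of the glial lists were highest on P5, as were 31 of 35 in other lists and 58 of 75 in no list, while 4 of the 6 in vessel and meninges lists were highest on P14. The exceptions in other lists were Cacng3, Grin2d, Nrgn and Lgals1. Of the 11 lower genes, 10 were lowest on P5, against 3693 of all 10236 genes, and Mid1 was lowest on P14. The genes were chosen on the P1 and P14 arrays, so the order of those 2 arrays is fixed by the choice.

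Hspb1 was the member that set P14 most apart from the other arrays. It read 8.30 (E17.5), 8.08 (P1), 8.68 (P5) and 10.20 (P14), the other 3 arrays lying between 8.08 and 8.68. Others highest on P14, chosen after their values were seen, were the tektin Tekt5 (9.11 on P1, 9.92 on P5 and 10.47 on P14), the protease inhibitor A2m (7.79, 8.89 and 9.33), Col14a1 (8.32, 9.24 and 9.69), Stum (8.92, 8.82 and 9.96) and the copine Cpne7 (7.44, 7.55 and 8.55). For Stum and Cpne7 the array labelled P5 was close to P1.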

How the data were processed

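Total RNA from 1 pool of pontine nuclei per age was hybridised to 1 array each, so no comparison has replicates. The deposited values are log2 signals per probe set (35556 probe sets), which the authors produced in Affymetrix Expression Console, per the submitters' processing notes. The sources used here give neither its version nor the summary method or normalisation. That the scale is log2 was taken from the range of the values (1.96 to 14.72 on the P1 and P14 arrays). The array medians were 7.91 (E17.5), 7.94 (P1), 7.89 (P5) and 7.92 (P14).

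The platform table listed 23410 probe sets. Of these, 21789 carried 1 symbol and were used. The 1621 with several symbols and the 12146 not listed were left out of the gene comparisons. Entrez identifiers of 21698 matched RefSeq (GRCm38.p6), and 0 symbols needed an update. For each gene the P1 value was subtracted from the P14 value as deposited. Differences of 2-fold, and 1.5-fold for lists, were counted. Genes named were the 20 highest and 20 lowest differences (predicted, RIKEN and small RNA symbols left out), in the lists described the 2-fold members with the 2 highest and 2 lowest (fewer where a list is only outlined), and a fixed set of markers. Hbb-b1, one of these, had no probe set of 1 symbol and is not analysed here. Others are said to have been chosen after their values were seen. The genes, the 44 lists (1345 of 1478 entries matched) and the comparison were chosen with earlier results of these data known. Promoters were read from the RefSeq table. Alternatives changed the level filter, the probe set rule, the scaling and the array used. Python 3.11.15, pandas 2.3.3, NumPy 2.4.6 and matplotlib 3.10.9 were used, and the counting was tested on simulated data.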

Additional observations from a re-analysis of the deposited data

How the results depend on the processing

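The 136 higher genes were 113 to 164 and the 11 lower genes 9 to 17 under another level filter (none, or the mean of both arrays), another probe set rule, quantile normalisation, 2 centrings, or probe set and filter over all 4 arrays; the 17 came from no filter. With the level at the upper quartile (9.87, 5226 genes) they were 72 and 7, since fewer genes were counted. With the array labelled P5 in place of P14 they were 977 and 420, of which 117 and 11 were among the genes reported; the cause was not tested. The higher share of the counted genes was 92.5%, and 90.6% to 93.1% under these settings, but 69.9% with P5. Of the 44 list medians, all stayed within 0.10, the spread between probe sets, under both centrings, quantile normalisation and the mean over probe sets. With no filter 6 moved and 1 reversed: the choroid plexus list, at -0.62 over 2 genes, was 0.09 over all its genes on the array. With the upper quartile level 7 moved and 35 did not, and 3 of the 7 changed sign: cerebellar neurons from 0.27 to -0.18, thyroid hormone and retinoid genes from 0.11 to -0.11 and cholesterol and lipid genes from 0.05 to -0.12. The glutamate receptor list went from 0.02 to -0.01 there. With the mean filter 1 moved. Over the 2-fold genes and the other genes fixed by rule (178 in all), 0 changed direction under the alternatives to filter, probe set rule and scaling that kept them. The mean over probe sets took Adamts9, Stum and Tmem196 under 2-fold, and the other alternatives took none. No paired analysis was possible because each age had 1 array and the labels carry no replicate numbers. Background was not measured, so the size of a difference is least sure near the level.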

Other observations

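Gene families chosen after their values were seen showed further patterns, given here as values with no test. Of the 229 zinc finger genes named Zfp past the level, 198 were lower on the array labelled P14 than on P1 and 29 higher, against 5371 lower and 4698 higher among all 10236 genes. Their median difference was -0.17, against -0.02 for all genes, and 0 reached 2-fold. Small nucleolar RNA genes, many of whose products guide the modification of ribosomal RNA, were lower in 30 of 31, with a median of -0.34. Snora33 was at 9.34 on P1 and 7.98 on P14, and Snord118 at 8.89 and 7.54. The second probe set of Snord118 carried the same values.

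Of 24 collagen chains past the level 20 were above 0 and 6 were 1.5-fold higher, with a median of 0.26. All 6 copines past the level were above 0, and Cpne9, Cpne6 and Cpne7 were 2-fold higher, while their median for P5 against P1 was 0.09. Of 22 protocadherins, adhesion proteins of neurons, 18 were below 0, with a median of -0.22. The replication-dependent histones had a median of -0.05 over 14, but H2bc4 was at 7.91 on P1, 11 on P5 and 9.40 on P14.

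Among the higher genes in none of the lists were several of receptors and ligands, chosen after their values were seen. The orphan receptor Gpr37l1 of astrocytes read 9.10 on P1 and 10.36 on P14, a difference of 1.26, and the chemokine Cx3cl1 read 8.80 and 10.09, a difference of 1.29. The serotonin receptor Htr2a was at 8.27 and 9.31, and the orexin receptor Hcrtr1 at 8.07 and 9.40.

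Probe sets with several symbols gave 2 at least 2-fold higher and 0 lower of 767 past the level (0.261%). Both carried Ass1, the urea cycle enzyme argininosuccinate synthase, together with the copy Gm5424, at 8 and 8.11 on P1 and 9.78 and 9.93 on P14, in that order. Signals of the gene and its copy cannot be told apart by these probes. Of 3686 unlisted probe sets past the level 8 were higher and 15 lower (0.624%). What these probe sets measure is not given, so they are not set against the named genes.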
